A study of Arabidopsis thaliana with 12 samples.

Results

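The chloroplast genome of *Arabidopsis thaliana* was represented in the gene count tables by 133 of 35651 listed genes, those whose identifiers start with ATCG. The study asked how linker histone H1 and the chromatin proteins CDCA7α and CDCA7β together shape DNA methylation and transcription, and its RNA-seq covered 12 libraries of 14-day-old seedlings in the Col-0 ecotype. By the library titles these were 3 libraries each of wild type (Col-0), the *cdca7α cdca7β* mutant (*CDCA7α* and *CDCA7β* both disrupted by CRISPR-Cas9), the *h1.1 h1.2* mutant (T-DNA insertions in the genes of the linker histones H1.1 and H1.2) and the *h1.1 h1.2 cdca7α cdca7β* quadruple mutant. Each library came from 1 seedling. The study's methods give long days for all seedlings, whereas the labels name long days on soil or constant light on plates without tying either to these libraries. A whole seedling pools leaf, stem and root cells, so a smaller share of green cells and less chloroplast RNA per green cell cannot be told apart in these counts.

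The names of the deposited tables contradict the titles for 3 of the 4 sets. What the titles call *cdca7α cdca7β* is Col-0 in the table names, the titles' Col-0 is *h1.1 h1.2* there, and the titles' *h1.1 h1.2* is *cdca7α cdca7β*. Only the quadruple mutant carries the same name in both. The libraries fall into the same 4 sets of 3 either way, so each value below holds under both namings and only the set's name changes. The sets are called by title, and each comparison is given its name by table as well. Counts of the targeted genes were low. Counts of *CDCA7α* (AT4G37110) were 3, 2 and 8 in the set titled *cdca7α cdca7β*, 4, 2 and 10 in that titled Col-0, 0, 0 and 5 in that titled *h1.1 h1.2*, and none in the quadruple mutant, so the set titled as its mutant was not the lowest. *CDCA7β* (AT2G23530) had 1 count in *cdca7α cdca7β* replicate 2, 7 in Col-0 replicate 2 and none elsewhere. AT1G06760, taken to be *H1.1*, was at 0 in the libraries titled *cdca7α cdca7β*, at 3, 2 and 10 in Col-0, at 21, 1 and 0 in *h1.1 h1.2*, and at 4, 6 and 5 in the quadruple mutant. Counts of AT2G30620, taken to be *H1.2*, were 0, 1 and 2, then 1, 15 and 7, then 16, 3 and 9, and then 7, 0 and 10, in the same order. Both H1 genes were thus counted in libraries labelled as their mutants, and the genotypes could not be settled from these few counts, which do not test a CRISPR allele.

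Chloroplasts keep a small circular genome that encodes part of the photosynthetic machinery (subunits of both photosystems, the cytochrome b6f complex, the ATP synthase, the NDH complex and the large subunit of Rubisco), together with ribosomal proteins, an RNA polymerase, and the rRNAs and tRNAs needed to express them. It is transcribed by that plastid-encoded polymerase, which takes its promoter recognition from nuclear-encoded sigma factors, and by a nuclear-encoded phage-type polymerase. Plastid genes are copied from many genome copies per cell and are not packaged with histones. In plastids a poly(A) tail is a short-lived mark of RNA decay rather than a stable end of the mRNA, and the libraries were made with a kit that selects polyadenylated RNA and keeps the strand.

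In the RefSeq annotation of the TAIR10.1 assembly, the plastid sequence of 154478 bases held 129 gene entries. These comprised 15 entries for photosystem II subunits, 5 for photosystem I, 6 each for the cytochrome b6f complex and the ATP synthase, 12 for the NDH complex, 1 for the Rubisco large subunit and 4 for the RNA polymerase. A further 14 and 11 entries were for the small and the large ribosomal subunit, 37 for tRNAs, 7 for rRNAs and 11 for others. The annotation gives these entries under other locus tags than ATCG numbers, and 0 of the 133 identifiers could be paired with an entry. The genes are therefore given by identifier, without length, strand or position, and counts of different genes are not compared per length. Notes on related nuclear genes in the same annotation describe 6 of the 133 by product, and these descriptions are used where they apply.

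The plastid sequence contains a large inverted repeat, and only uniquely mapped reads were counted. The part of the repeat in the chloroplast counts was not tested. A self-comparison found copies of 26264 bases each at Pltd:84171-110434 and Pltd:128215-154478, identical when one is read on the opposite strand. Together they held 31 of the 129 gene entries, among them all 7 rRNA entries, 14 of the 37 tRNA entries and both entries for rpl2, which encodes a protein of the large ribosomal subunit. The outer ends of both copies are shown to let the identity be seen. Each line gives 30 unrepeated bases in lower case and then the first 50 bases of the copy in capitals, 5′ to 3′, from RefSeq (TAIR10.1). The first is the plus strand from base 84141 to 84220, and the second is the minus strand from base 30 back over the origin of the circle to base 154429.
first copy: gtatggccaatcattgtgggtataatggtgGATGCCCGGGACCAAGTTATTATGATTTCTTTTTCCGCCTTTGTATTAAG
second copy: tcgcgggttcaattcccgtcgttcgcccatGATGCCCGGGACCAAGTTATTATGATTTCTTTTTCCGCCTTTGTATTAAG
The bases in capitals occur at 2 places in the plastid sequence, and a read that lies inside them cannot be placed uniquely.

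Of the 133 chloroplast genes, 39 had no count in any of the 12 libraries, 94 had at least 1 count, and 10 had a count in every library. The genes without counts were not scattered over the numbering. From ATCG00830 to ATCG00990, 17 of 18 genes were at 0 and ATCG00950 had 1 count. From ATCG01140 to ATCG01310 all 18 were at 0. Among the remaining 97 genes 4 were at 0, namely ATCG00240, ATCG00290, ATCG00310 and ATCG00570. ATCG01310 is described as ribosomal protein L2, the product of rpl2, and it had 0 counts in each library. A count of 0 allows up to 0.119 counts per 1000000 reads for a gene in the shallowest library (3 counts, quadruple mutant replicate 1), a limit for counting error only. Whether the other genes of both stretches are those of the repeat was not tested, because their identifiers carry no coordinates here, and a count of 0 among uniquely mapped reads does not show that a gene was not expressed.

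Total reads in the gene tables, including the summary lines, ranged from 25236235 to 43462077 per library. Of these, between 1.56% and 2.38% were assigned to a gene, giving 450869 to 833911 gene counts, and 97.6% to 98.4% stood in the line for reads that matched no feature. The strand setting of the counting is not given in the sources used here, so it is not known from which strand of a gene these counts came. Chloroplast values rest on this small counted fraction.

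Chloroplast genes took a very small part of the counts in 11 libraries and 20.2 times their median in the remaining one, replicate 3 of the quadruple mutant. The chloroplast counts were 169, 151 and 256 in the libraries titled *cdca7α cdca7β*, 123, 223 and 93 in those titled Col-0, 168, 196 and 394 in those titled *h1.1 h1.2*. The quadruple mutant had 122, 97 and 2912. As a share of gene counts these were 0.0249%, 0.0259% and 0.0341%, then 0.0182%, 0.0267% and 0.0154%, then 0.0254%, 0.0383% and 0.0659%, and finally 0.0271%, 0.0210% and 0.523% in the same order. Quadruple mutant replicate 3 alone supplied 59.4% of all 4904 chloroplast counts, and its 95% Wilson interval (0.505% to 0.543%) lay far above that of the next library, *h1.1 h1.2* replicate 3 (0.0597% to 0.0727%). These intervals cover counting error only, since the reads carry no molecular identifiers.

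Against all reads, summary lines included, the picture had the same shape. The libraries titled *cdca7α cdca7β* held 4.32, 4.33 and 6.45 chloroplast counts per 1000000 reads, and those titled Col-0 held 3.20, 5.13 and 2.80. The libraries titled *h1.1 h1.2* held 6.04, 6.40 and 13.7, and the quadruple mutant 4.83, 3.64 and 81.6. On this scale each library titled *h1.1 h1.2* lay above each library titled Col-0, whereas as a share of gene counts replicate 1 of *h1.1 h1.2* lay below replicate 2 of Col-0. The quadruple mutant overlapped with each other set on both scales.

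Set means followed from this. The share of gene counts was 0.0283% ± 0.0051 in *cdca7α cdca7β*, 0.0201% ± 0.0059 in Col-0, 0.0432% ± 0.021 in *h1.1 h1.2* and 0.190% ± 0.288 in the quadruple mutant (SD, n = 3 each, by title). The SD of the quadruple mutant exceeds its mean. Without replicate 3 its mean was 0.0240%, between those of Col-0 and *cdca7α cdca7β*. By table name the same means read 0.0283% for Col-0, 0.0201% for *h1.1 h1.2* and 0.0432% for *cdca7α cdca7β*. No test was made on these sums.

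**Figure D1:**
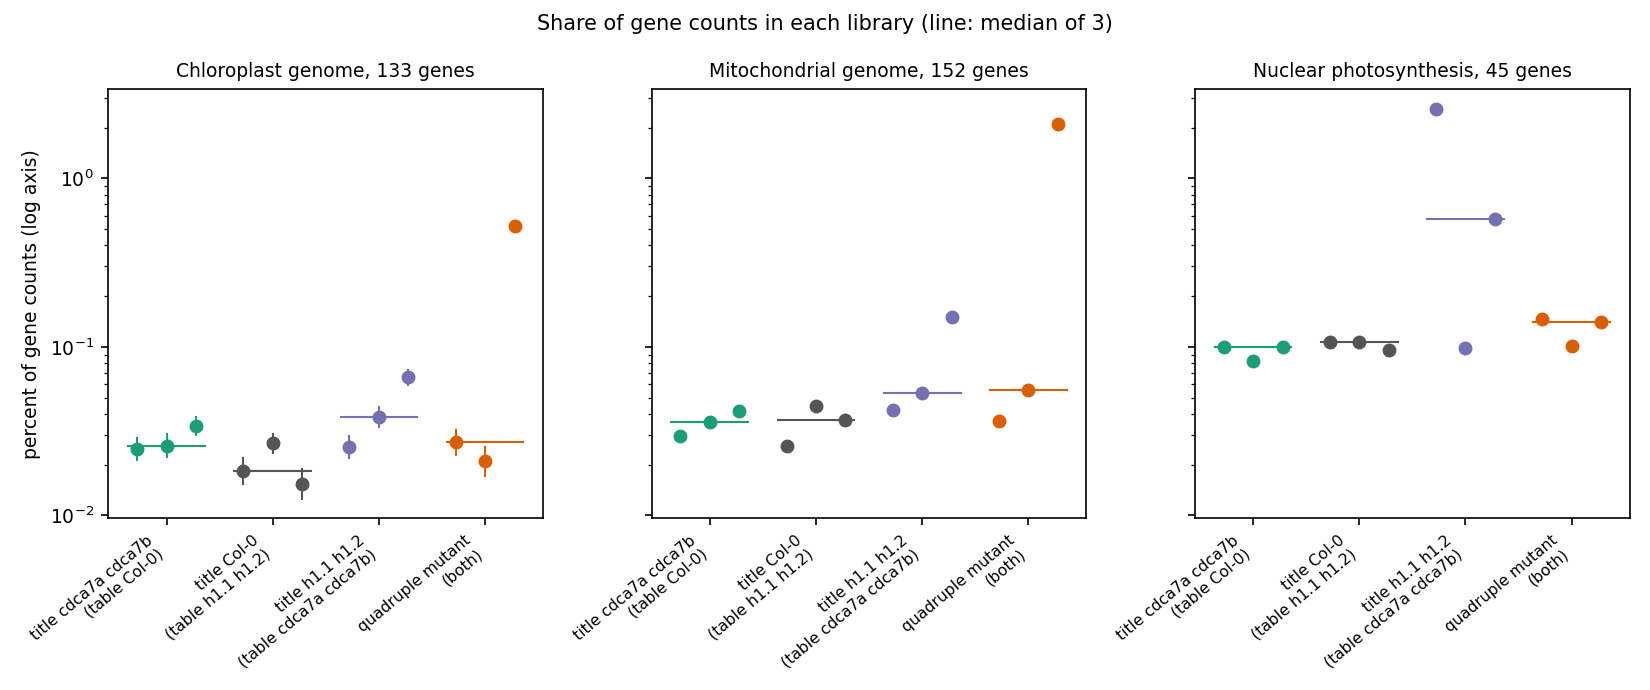
Share of gene counts (percent, log axis) taken by 133 chloroplast genes, 152 mitochondrial genes and 45 nuclear photosynthesis genes in each of the 12 libraries. The nuclear genes were chosen by the start of their symbols. Sets are named by title and, in brackets, by table name. Points are libraries, horizontal lines the median of 3, and vertical lines in the first panel the 95% Wilson interval. Quadruple mutant replicate 3 reaches 0.523% for chloroplast and 2.1% for mitochondrial genes but 0.140% for nuclear photosynthesis genes, where *h1.1 h1.2* replicate 1 is highest with 2.59%.

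The library that was high in chloroplast counts was high in the other organelle as well, and not in nuclear genes for photosynthesis. Mitochondrial genes (152 identifiers starting with ATMG) had 11695 counts or 2.1% of gene counts in quadruple mutant replicate 3 and 0.0259% to 0.150% in the other 11 libraries, the upper end again in *h1.1 h1.2* replicate 3. Per 100 mitochondrial counts there were 24.9 chloroplast counts in quadruple mutant replicate 3, against 38.0 to 84.5 in the others, so the chloroplast share was higher by a smaller factor than the mitochondrial one in that library. The 45 nuclear genes with symbols starting in LHCA, LHCB, PSA, PSB or RBCS took 0.140% there, inside the range of 0.0822% to 2.59% of the other libraries. Most such symbols stand for light-harvesting proteins, photosystem subunits and the small subunit of Rubisco. The list also held *PSAT* (AT4G35630) and *PSAT1* (AT1G04010), which are not photosystem genes. It lacked *LHCB1.1*, *LHCB1.2* and *LHCB1.3*, which were among the green tissue markers. The library highest for these nuclear genes, *h1.1 h1.2* replicate 1, had an ordinary chloroplast share of 0.0254%. Markers of green tissue gave 0.0584% of gene counts in quadruple mutant replicate 3 (0.0305% to 1.77% in the others), and all 11 had a count. Markers of root (6 genes) gave 0.0225% there and 0.0159% to 0.0491% in the others. *PYK10* alone had 102 of their 125 counts in quadruple mutant replicate 3, where *SHR* and *COBL9* were at 0. Of 5 floral organ genes, 2 had any count, and they gave at most 0.0011% of gene counts. The part of any of these, or of the total depth of 35691432 reads, in the chloroplast values was not tested.

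The high share in quadruple mutant replicate 3 was spread over nearly all chloroplast genes that were counted at all. Of the 133 genes, 87 had a count in that library, against 29 to 56 in each of the others, and 54 had at least 10 counts, against 0 to 12. ATCG00065, ATCG00590, ATCG00760 and ATCG00790 were counted only there, with 9, 1, 5 and 7 counts. The 7 genes that were counted elsewhere and not there had 1 to 4 counts in all. At least 10 summed counts in the other 11 libraries were found for 40 genes, and 38 of these 40 had their highest counts per 1000000 gene counts (CPM) in quadruple mutant replicate 3. Among all 13768 genes with that many counts, 5.61% were highest there, and among 8 mitochondrial genes 6 were. The exceptions were ATCG00070, with 17 counts in *h1.1 h1.2* replicate 3 against 10, and ATCG00330, with 8 against 6.

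For each of these 40 genes the share of gene counts in quadruple mutant replicate 3, after TMM scaling of library sizes, was divided by the pooled share in the other 11 libraries. The ratio ran from 2.67 to 52.7 with a median of 16.4, and for all chloroplast counts together it was 17.9. The 95% exact binomial interval of the ratio, from counting error alone, lay above 1 for 39 of the 40 genes, the exception being ATCG00460 with 7 counts there and 32 in the others (2.67, interval 0.996 to 6.17). Ratios differed among genes by more than counting error. ATCG00740 had 112 counts there and 26 in the 11 others (ratio 52.7, interval 34.1 to 84.1), whereas ATCG00490 had 31 and 119 (ratio 3.19, interval 2.07 to 4.76), and these intervals do not overlap. In all, 25 genes had a ratio above 10 and 9 a ratio under 5.

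**Figure D2:**
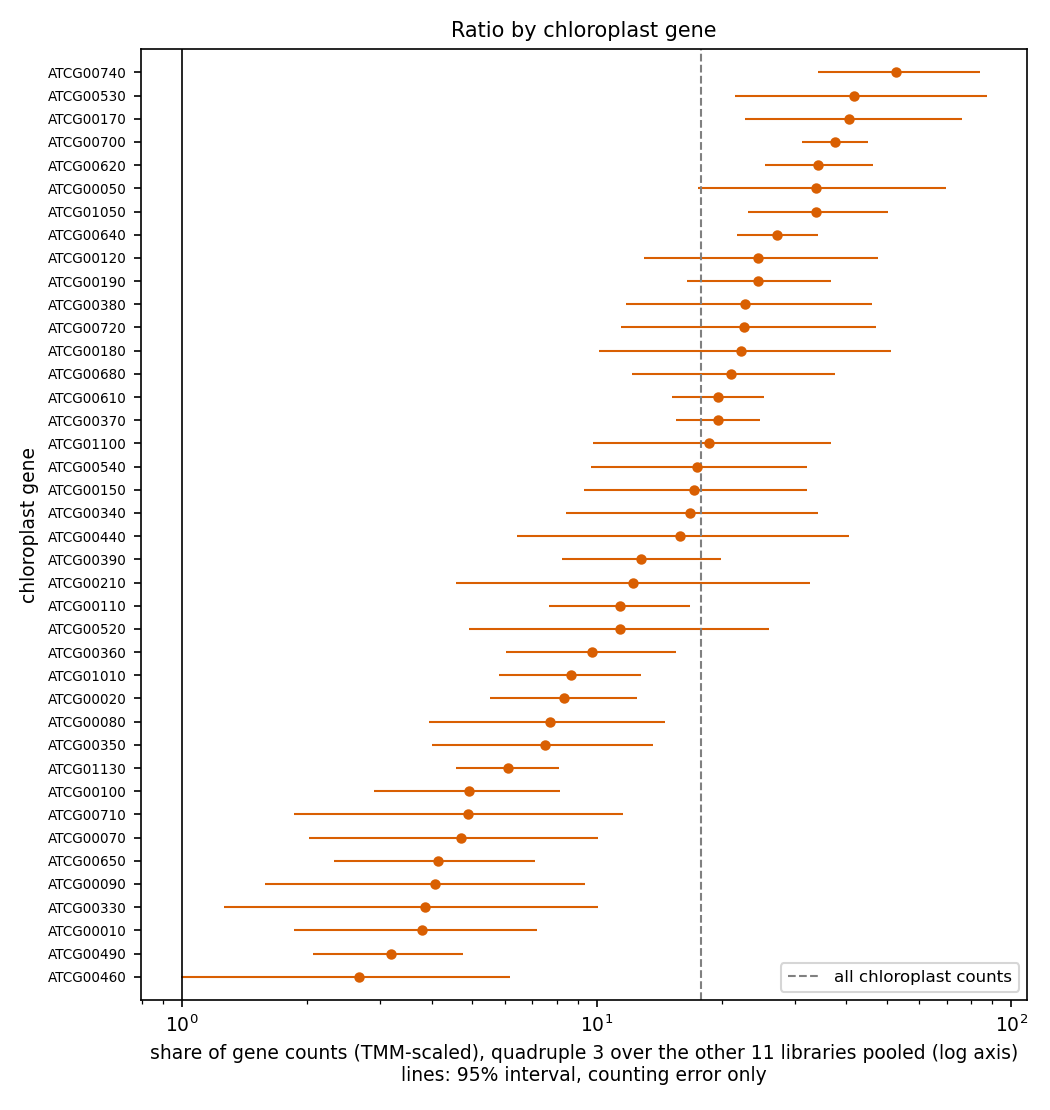
Share of gene counts in quadruple mutant replicate 3 divided by the pooled share in the other 11 libraries (log axis), for the 40 chloroplast genes with at least 10 counts in those 11. Points are genes, lines 95% intervals from counting error, the dashed line the ratio of all chloroplast counts (17.9) and the solid line a ratio of 1. Ratios range from 2.67 for ATCG00460 to 52.7 for ATCG00740.

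The high share did not rest on the few genes with most counts. Leaving out the 3 genes with the highest mean CPM, the share was 0.354% in quadruple mutant replicate 3 and 0.0135% to 0.0510% in the others. Leaving out the 10 highest, it was 0.221% against 0.0083% to 0.0355%, and leaving out the 40 highest, 93 genes with 367 counts still gave 0.0660% against at most 0.0092%.

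ATCG00700 had the highest mean CPM of the chloroplast genes. Its counts were 12, 7 and 26 in *cdca7α cdca7β*, 4, 16 and 8 in Col-0, 11, 27 and 32 in *h1.1 h1.2* by title. The quadruple mutant libraries had 6, 10 and 487. The first 2 quadruple mutant libraries lay within the range of the other sets and replicate 3 far above all of them. It made up 16.7% of the chloroplast counts in that library (95% Wilson interval 15.4% to 18.1%) and 3.25% to 13.8% in the others, or 7.98% pooled (6.87% to 9.25%). It also had the highest mean CPM over the 11 other libraries alone.

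ATCG00640 had 4, 8 and 15 counts in *cdca7α cdca7β*, 12, 5 and 2 in Col-0, 14, 15 and 29 in *h1.1 h1.2*. Its quadruple mutant counts were 3, 8 and 256. The next gene by level, ATCG00370, had 8, 7 and 28, then 10, 9 and 1, then 11, 12 and 28, and then 3, 6 and 197, in the same order of sets. In both genes the 3 libraries titled *h1.1 h1.2* lay above those titled Col-0 on the CPM scale, and quadruple mutant replicates 1 and 2 lay within the range of the other sets.

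ATCG00610 had 12, 10 and 9 counts, then 6, 17 and 2, then 6, 5 and 32, and then 1, 3 and 165 in the quadruple mutant. Counts of ATCG00620 were 8, 2 and 7, then 2, 12 and 1, then 10, 9 and 10, and then 1, 1 and 176. Outside replicate 3 the quadruple mutant was thus at 1 to 3 counts in both genes, at or near the lowest values of the series. Replicate 3 was the highest library for each.

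ATCG00490 behaved differently. It was counted in every library, with 21, 14 and 15 counts in *cdca7α cdca7β*, 12, 12 and 4 in Col-0, 6, 10 and 9 in *h1.1 h1.2*. Quadruple mutant libraries had 12, 4 and 31. Replicate 3 of the quadruple mutant was still the highest library, but by 31 against 21 counts in *cdca7α cdca7β* replicate 1. Its part of the chloroplast counts was 1.06% in quadruple mutant replicate 3 and 2.28% to 12.4% in the 11 others (5.97% pooled), lower there than in any other library.

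ATCG01130 varied among replicates of every set. Its counts were 6, 33 and 22, then 2, 28 and 6, then 20, 0 and 11, and then 22, 0 and 75, and 2 libraries of different sets had none. In 1 library, *cdca7α cdca7β* replicate 2, it made up 21.9% of the chloroplast counts. It was 2.58% of them in quadruple mutant replicate 3 and 7.53% in the others pooled.

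ATCG01050 and ATCG00740 were near 0 in most libraries. ATCG01050 had 4, 3 and 1, then 2, 1 and 0, then 0, 9 and 14, and then 1, 3 and 105 counts. Counts of ATCG00740 were 4, 0 and 1, then 9, 2 and 0, then 1, 0 and 9, and then 0, 0 and 112. For ATCG01050 the second highest library was *h1.1 h1.2* replicate 3 on the CPM scale. For ATCG00740 that library and Col-0 replicate 1 came next, with 9 counts each. The last 3 of the 12 genes with the highest mean CPM, ATCG00190, ATCG00110 and ATCG01010, had 80, 53 and 46 counts in quadruple mutant replicate 3 and at most 8, 12 and 19 in any other library.

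**Figure D3:**
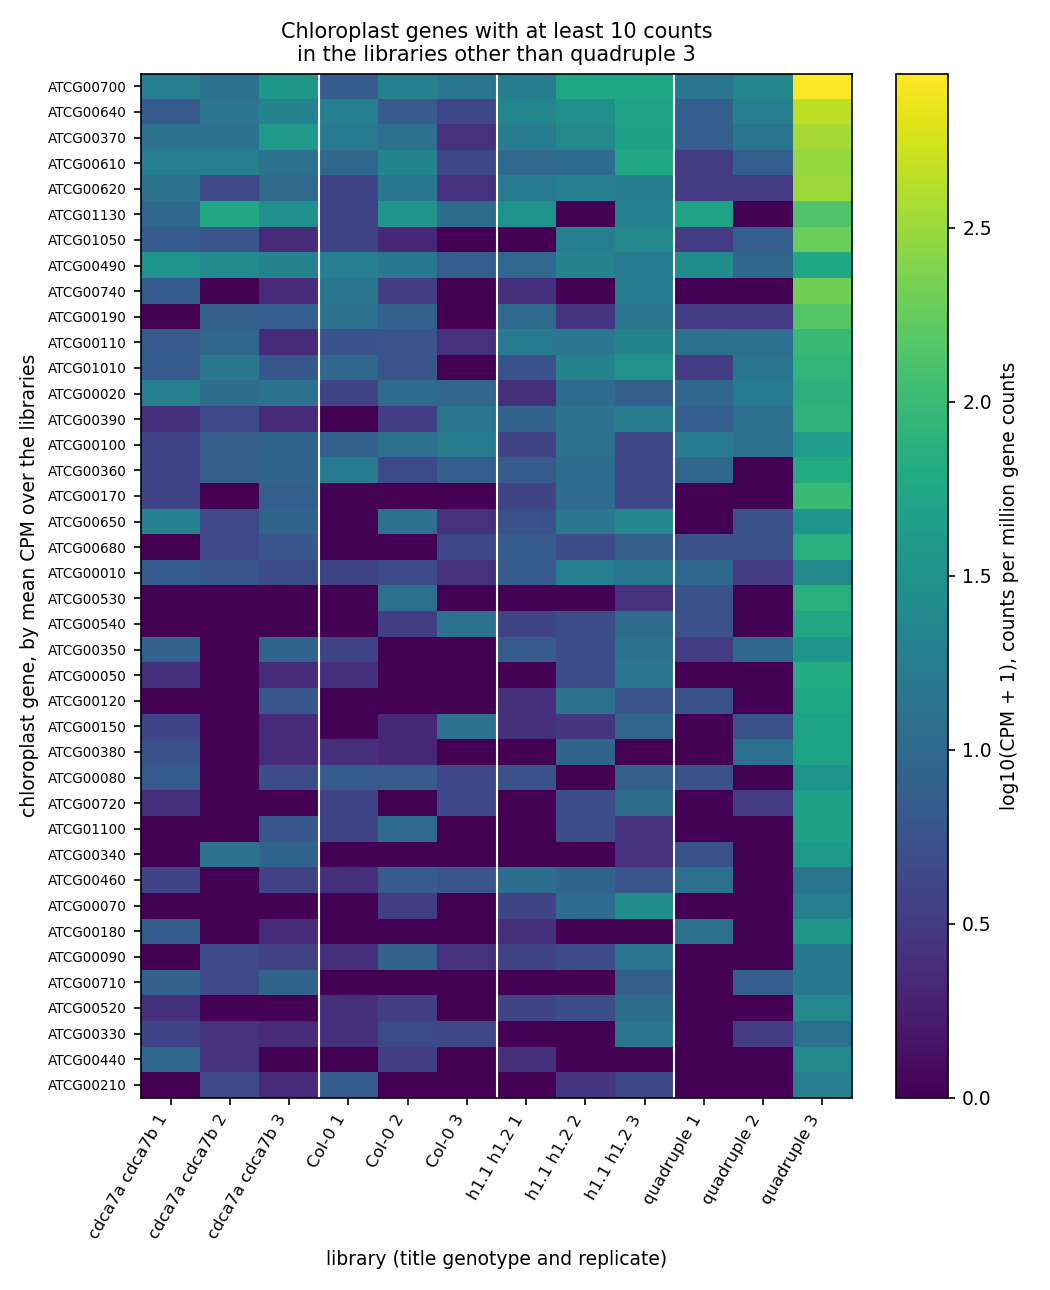
Heat map of log10(CPM + 1) for the 40 chloroplast genes with at least 10 summed counts in the 11 libraries other than quadruple mutant replicate 3 (rows, by mean CPM) in each of the 12 libraries (columns, by title). CPM is counts per 1000000 gene counts, in the colours without TMM scaling. The last column, quadruple mutant replicate 3, is the brightest for 38 of the 40 genes, and the other 2 quadruple mutant columns are not brighter than the rest.

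Genes with a described product had few counts. ATCG00530, described as related to the CemA-like proton extrusion protein of the plastid envelope, had 9 counts in Col-0 replicate 2, 1 in *h1.1 h1.2* replicate 3, 2 in quadruple mutant replicate 1, 41 in quadruple mutant replicate 3 and 0 elsewhere. ATCG00750, ribosomal protein S11 of the small subunit, had 34 counts in quadruple mutant replicate 3 and 0 to 4 in the others. ATCG00670, the plastid-encoded ClpP, which is the proteolytic subunit of the plastid Clp protease, had 18 counts there and 1 in all other libraries together. ATCG00430, described as photosystem II reaction centre protein G, had 9 counts there and at most 4 in another library, and ATCG00660, ribosomal protein L20 of the large subunit, had 7 and at most 4. In each of these 5 genes quadruple mutant replicate 3 had the most counts. For those with at most 9 counts there the difference from the next library was only a few counts.

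After quadruple mutant replicate 3, *h1.1 h1.2* replicate 3 had the most chloroplast counts. Its share of gene counts was 2.56 times that of the 10 libraries left when both were set aside. Of 35 genes with at least 10 counts in those 10 libraries, 24 had a ratio above 1, the median was 2.45 and the range 0 to 7.56. These ratios were taken without the TMM scaling used for those of quadruple mutant replicate 3. The same count over all genes was not made. ATCG00610 had 32 counts there and 71 in the 10 others (ratio 4.68), ATCG00490 had 9 and 110 (ratio 0.85). The mitochondrial share of that library (0.150%) and its share of nuclear photosynthesis genes (0.570%) were also second highest of the 12.

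Which chloroplast genes were counted most was similar between quadruple mutant replicate 3 and the rest. Over the 94 genes with a count, the Spearman correlation between counts there and the sum of the 11 others was 0.74, as a description across genes that share libraries.

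To ask whether any chloroplast gene differed between genotypes beyond the spread of 3 libraries, all genes were fitted together with edgeR's quasi-likelihood test. A gene was called when its Benjamini-Hochberg adjusted p was below 0.05 and its log2 fold change was 1 or more in size. After the filter on low counts 4461 genes were tested, of which 10 were chloroplast genes (ATCG00370, ATCG00490, ATCG00610, ATCG00620, ATCG00640, ATCG00650, ATCG00700, ATCG01010, ATCG01050 and ATCG01130). The other 123 had too few counts. None of the 10 was called in any of the 6 pairwise comparisons.

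For *cdca7α cdca7β* against Col-0 by title (Col-0 against *h1.1 h1.2* by table name), 0 of the 10 genes were called, where 0.0448% of all tested genes were called higher and 0.381% lower. At an unadjusted p below 0.05 the count was 0 as well, where 126 of all 4461 tested genes were higher and 211 lower. ATCG00490, in which the libraries of these sets did not overlap, had a log2 fold change of 1.09 (SE 0.62, adjusted p = 0.764). Not overlapping in either direction was found for 1 of the 10 and for 15.7% of all tested genes.

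For *h1.1 h1.2* against Col-0 (*cdca7α cdca7β* against *h1.1 h1.2* by table name), 0 were called, where 2.82% of all tested genes were called higher and 1.12% lower. No chloroplast gene passed an unadjusted p below 0.05, where 486 of all 4461 tested genes were higher at that p and 283 lower. The fitted values of the 10 ran from 0.17 for ATCG00490 to 3.05 for ATCG01050 (SE 1.61, adjusted p = 0.366). The libraries did not overlap in 4 of 10 (ATCG00370, ATCG00620, ATCG00640 and ATCG00700, all with *h1.1 h1.2* above Col-0), and 9.95% of all tested genes were above Col-0 in every *h1.1 h1.2* library. Without quadruple mutant replicate 3 in the fit, 2 of these had an unadjusted p below 0.05, where 798 of all 5392 genes then tested were higher at that p. The adjusted p was 0.132 for ATCG00700 and 0.180 for ATCG00640.

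For *h1.1 h1.2* against *cdca7α cdca7β* (*cdca7α cdca7β* against Col-0 by table name), 0 were called and 0 passed an unadjusted p below 0.05. Of all tested genes 2.02% were called higher and 0.157% lower. At an unadjusted p below 0.05, 477 of all 4461 were higher and 227 lower. Fitted log2 fold changes were positive for 8 of the 10 genes and negative for ATCG01130 and ATCG00490 (-0.92, SE 0.62, adjusted p = 0.517). Libraries did not overlap for ATCG00490, lower in *h1.1 h1.2*, and for ATCG00620 and ATCG00640, higher there, against 17.2% of all tested genes in either direction.

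The quadruple mutant had the largest fitted differences and no call. Against Col-0 by title (*h1.1 h1.2* by table name) 0 of 10 were called, where 0.0448% of all tested genes were called higher and 0.0% lower. At an unadjusted p below 0.05, 7 of the 10 were higher and 0 lower, where 124 of all 4461 tested genes were higher and 106 lower. ATCG00700 had a log2 fold change of 4.62 (SE 1.18, adjusted p = 0.547) and ATCG01050 one of 5.42 (SE 1.52, adjusted p = 0.606). Against *cdca7α cdca7β* (Col-0 by table name) 0 were called, with a background of 0.381% higher and 0.0448% lower. At an unadjusted p below 0.05, 6 were higher and 0 lower, where 232 of all 4461 tested genes were higher and 159 lower. Against *h1.1 h1.2* (*cdca7α cdca7β* by table name) 0 were called, with a background of 0.157% higher and 0.179% lower. At an unadjusted p below 0.05, 3 were higher and 0 lower, where 229 of all 4461 tested genes were higher and 328 lower. The 3 comparisons share the quadruple mutant libraries. The quadruple mutant libraries stood clear of another set in 0 of the 10 genes and in 12.1% to 14.8% of all tested genes. With only 10 genes, 0 is close to that share.

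**Figure D4:**
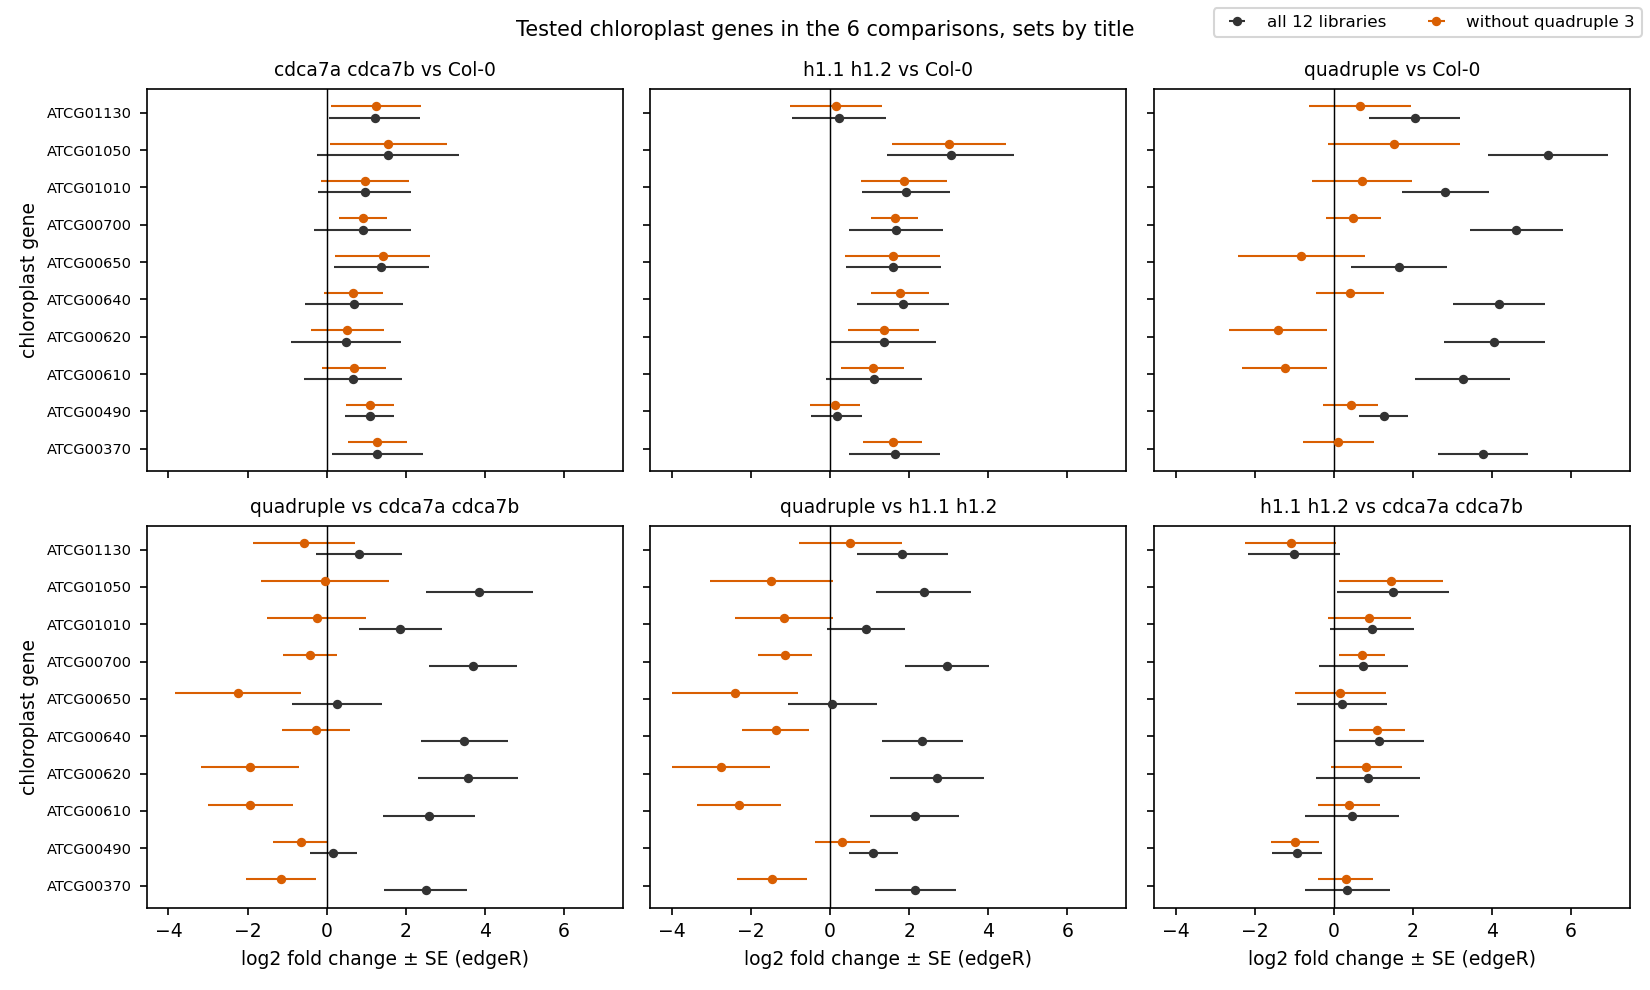
Log2 fold change from edgeR, with a standard error derived from it and its F value, for the 10 tested chloroplast genes in the 6 comparisons, with sets named by title. Dark points use all 12 libraries and orange points leave out quadruple mutant replicate 3. In the 3 comparisons with the quadruple mutant the orange points lie lower, for ATCG00700 at 0.50, -0.42 and -1.14 in place of 4.62, 3.70 and 2.95.

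These differences rested on 1 library. Without quadruple mutant replicate 3, ATCG00700 had a log2 fold change of 0.50 against Col-0 (SE 0.69). It was -0.42 against *cdca7α cdca7β* (SE 0.69) and -1.14 against *h1.1 h1.2* (SE 0.69). No chloroplast gene had an unadjusted p below 0.05 in the first 2 of these comparisons. Of all 5392 genes then tested, 105 were higher and 146 lower at that p against Col-0. Against *cdca7α cdca7β*, 184 were higher and 187 lower. Against *h1.1 h1.2*, ATCG00610 and ATCG00620 then had negative values of -2.31 and -2.77 (adjusted p = 0.376 and 0.362). They were the 2 of the 10 genes with an unadjusted p below 0.05, where 504 of all 5392 were lower and 206 higher. Of the 10, 0 were called, where 4 of all 5392 were called higher and 3 lower.

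Whether chloroplast genes were called also depended on the filter. With all 23140 genes that had a count, 94 of them chloroplast genes, 10 were called higher in the quadruple mutant against Col-0 (background 0.134%), 11 against *cdca7α cdca7β* (background 0.311%) and 12 against *h1.1 h1.2* (background 0.311%), and 0 lower. Of 15 genes called in any of these comparisons 8 were called in each, among them ATCG00700 and ATCG00640. When quadruple mutant replicate 3 was left out of this fit too, 0 were called in each of these comparisons. Of all 22851 genes then fitted, 4, 23 and 34 were called higher, in the same order. In the fit with no filter and all 12 libraries ATCG00700 was called higher in *h1.1 h1.2* than in Col-0. Its log2 fold change was 1.48 with an SE of 0.45 (adjusted p = 0.0376, background 2.23%). That call was lost without quadruple mutant replicate 3 and without *h1.1 h1.2* replicate 3 (0 called each). In these 2 fits 522 of all 22851 and 480 of all 22757 genes were called higher. In the fit with the filter its log2 fold change was 1.66 (SE 1.18) from all libraries, 1.64 (SE 0.60) without the former and 1.46 without the latter. DESeq2 called 0 chloroplast genes in each comparison and returned no p for 6 of the 10, which could therefore not be called. Of all 4461 genes fitted it called 3 to 248 higher and 0 to 107 lower, depending on the comparison.

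The nuclear genes of plastid transcription that could be matched were not high in quadruple mutant replicate 3. Of 23 listed genes 16 were found by symbol. *RPOT1*, *RPOT2* and *RPOT3*, listed for the phage-type polymerases, were not found, nor were *TRXZ*, *PNP1* and *RNJ*. *SIG1* was left out because it matched 2 genes. Together the 16 had 50 counts in quadruple mutant replicate 3 and 36 to 383 in the other libraries, the highest in *h1.1 h1.2* replicate 1. Of the 16, 3 had enough counts for the test and 0 were called in any comparison. Of all tested genes, 0.0448% to 2.82% were called higher and 0.0% to 1.12% lower, depending on the comparison. *SIG2*, a sigma factor of the plastid-encoded polymerase, had 13, 12 and 8 counts in the quadruple mutant and 6, 15 and 17 in Col-0. *PTAC3*, a component of the plastid transcriptionally active chromosome, had 14, 6 and 7 counts in the quadruple mutant and 5, 4 and 4 in Col-0, and *MURE*, a MurE-like protein bound to the plastid polymerase, had 3, 1 and 5 against 14, 3 and 3. Replicate 3 of the quadruple mutant was the highest of the 12 libraries for none of these 3 genes.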

How the data were processed

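RNA-seq libraries (500 ng of total RNA, TruSeq Stranded mRNA kit, NovaSeq X Plus) came from 12 seedlings. The authors trimmed reads with Trim Galore 0.6.7, aligned them with STAR 2.7.11a to TAIR10, kept uniquely mapped reads with under 5% mismatches and counted them per gene with HTSeq 0.13.5, per the labels and the study's methods. The deposited values used here are these raw counts per gene, with 5 summary lines. Of those, the no-feature and the ambiguous line held reads and the other 3 were at 0. The tables of transposable element counts were not used. Summary lines were left out of library sizes and tests.

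Groups came from the titles, and the table names were carried beside them. Shares were taken of gene counts and of all lines. All 12 libraries were fitted in 1 model with edgeR 4.0.16 (filterByExpr, TMM, quasi-likelihood, R 4.3.3) with a mean per set and no block, and p-values were adjusted over 4461 genes. The SE of each edgeR log2 fold change was derived from that value and the F value of its test. The fitting was tested on simulated counts. Ratio intervals are exact binomial, conditional on the summed counts. Same-numbered libraries of different sets were correlated between -0.148 and 0.161 in 18 pairs, with 3 above 0.1, and were not treated as pairs. The labels do not say that replicates of a set differ in more than the seedling. Alternatives were DESeq2 1.42.0, its size factors, nuclear genes or all reads as library size, no filter, only the libraries compared, a replicate block, no fold cutoff and leaving out each library. The gene lists and the chloroplast genes were chosen with earlier results of these data known. Genes to name were the 12 with the highest mean CPM and any called. The planned naming by functional class and of single well-known genes was not possible, as the annotation (RefSeq, TAIR10.1) pairs 0 of 133 ATCG identifiers, although 34879 of 35651 table identifiers are locus tags in it. ATCG00950, the genes outside the 12 that are described by product, and those that stand out by where they were counted were named after their values were seen.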

Additional observations from a re-analysis of the deposited data

How the results depend on the processing

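The calls depended on the filter and on quadruple mutant replicate 3. In the fit with the filter, 0 chloroplast genes were called in either direction in any of the 6 comparisons with DESeq2, its size factors, nuclear genes or all reads as library size, only the libraries compared, no fold cutoff, or without any 1 library (range 0 to 0). With the fold cutoff, these fits called 0 to 554 of all 3340 to 5408 genes tested higher and 0 to 337 lower, depending on the fit and comparison. The chloroplast genes tested were not the same 10 throughout. They numbered 3 to 6 with only the libraries compared and 10 to 15 with 1 library left out, and DESeq2 gave no p for 6. With no filter, 10, 11 and 12 genes were called higher in the quadruple mutant against Col-0, *cdca7α cdca7β* and *h1.1 h1.2*, and 1 in *h1.1 h1.2* against Col-0. Added after seeing the data, no filter without *h1.1 h1.2* replicate 3 gave 10, 11 and 9 in the quadruple mutant comparisons, where 31, 73 and 44 of all 22757 genes were called higher. Without quadruple mutant replicate 3 it gave 0 each, where 4, 23 and 34 of all 22851 genes were called higher. The replicate block left 0 calls, with 4, 2 and 0 genes in place of 7, 6 and 3 at an unadjusted p below 0.05 in the quadruple mutant against Col-0, *cdca7α cdca7β* and *h1.1 h1.2*, and changed no other call. Of all 4461 tested genes, 114, 218 and 218 were higher at that p with the block, in place of 124, 232 and 229. Against Col-0, ATCG00700 had a log2 fold change of 3.49 with the block and 4.62 without.

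With 1 library left out, the log2 fold change of ATCG00700 in the quadruple mutant ranged from -0.42 to 4.23 against *cdca7α cdca7β* and from -1.14 to 3.55 against *h1.1 h1.2*, negative only without quadruple mutant replicate 3. That of ATCG00490 against *cdca7α cdca7β* ranged from -0.66 to 0.56 and was also negative (-0.0062) without *cdca7α cdca7β* replicate 3. The chloroplast share of the quadruple mutant ranged from 0.0240% to 0.275% of gene counts and from 4.24 to 43.2 counts per 1000000 reads. With ambiguous and no-feature reads in the denominator, the shares were 0.000503%, 0.000371% and 0.000870% in *cdca7α cdca7β*, Col-0 and *h1.1 h1.2*, lower because the denominator holds all reads, and without the 3 genes of highest mean CPM that of *cdca7α cdca7β* was 0.0228%. The shares without rRNA and tRNA genes were not run, since the identifiers could not be classed. With 93 to 394 chloroplast counts in 11 libraries, single genes had too few counts for small differences to be detectable, and 123 of 133 were not tested.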
